A study of Caenorhabditis elegans with 2 samples.

Results

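The genes described here are the 47 protein-coding genes of C. elegans whose symbols begin with rpl- in the Ensembl WBcel235 annotation, out of 19973 protein-coding genes in all. Most of them encode proteins of the large subunit of the cytoplasmic ribosome: 45 of the 47 have a ribosomal protein as their RefSeq product. The other two are rpl-42, whose product is described as a NAM-associated domain-containing protein, and rpl-24.2, described as a putative ribosome biogenesis protein related to yeast Rlp24. The members are defined by symbol, with no measured value in the rule; the family itself was taken up with earlier results of these data known.

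Binding of BLMP-1, a zinc-finger transcription factor related to mammalian Blimp-1 (PRDM1), was measured in whole L1 larvae by ChIP-seq, the sequencing of DNA that an antibody pulls down with the protein; L1 is the first larval stage. The larvae were of strain OP109, genotype unc-119(ed3) III; wgIs109, in which wgIs109 is an insertion that carries eGFP-tagged blmp-1, and both sexes were pooled. The material was 1 group of 2 biological replicates with no second genotype, stage or treatment, and libraries of the possible control named in the labels were not analysed here. The labels name blmp-1 as the antibody target and do not say whether untagged BLMP-1 was also pulled down, and since whole larvae were used the tissue in which a site was bound cannot be told. The age of the larvae in hours is not given, and read depth is unknown because the files used hold peaks and no counts.

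A ribosome's large subunit holds the peptidyl transferase centre, where peptide bonds form, and the tunnel through which the new protein leaves. Its proteins are made in nearly equal numbers, and ribosomal protein genes are among the most strongly transcribed genes of growing cells. In animals many of these genes carry in their introns the small nucleolar RNAs (snoRNAs) that guide chemical modification of ribosomal RNA. In C. elegans many transcripts lose their first stretch by trans-splicing to a spliced leader, so an annotated start can lie downstream of the base at which transcription begins. The roles of single proteins given below are known from yeast and mammalian ribosomes. Names follow Ensembl, and where the RefSeq product carries the universal ribosomal protein name (such as uL3) it is added.

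A gene was called bound when the summit of a peak in the authors' optimal list lay between 1500 bp upstream and 500 bp downstream of any annotated transcript start. By this rule 39 of the 47 rpl genes were bound (83%, exact 95% interval 69.2 to 92.4%), against 5483 of all 19973 protein-coding genes (27.5%). Their best peaks were 39 different peaks, and every summit lay upstream of the gene's nearest start, at a median of 302 bp. Short DNA words recur at these summits, and they are shown first.

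The sequence of 151 bases centred on each of the 39 best summits was read from the RefSeq FASTA of the same assembly (WBcel235), in the direction of the rpl gene. Words of 8 bases were ranked by how much more often they occurred, on either strand, in these windows than at all 8751 optimal summits. From the top of that order 7 words were kept that share no run of 5 bases with a word already kept. The words were picked on the rpl windows after the sequences had been seen, so their share there is a description of the choice, and no test is attached to it. The windows below are those of the 4 strongest rpl peaks that lie in no annotated UTR, followed by 4 windows with 3 or 4 words each. Capitals mark the words, and all other bases are in lower case.

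rpl-3 (chrIII:3867496-3867646, plus strand): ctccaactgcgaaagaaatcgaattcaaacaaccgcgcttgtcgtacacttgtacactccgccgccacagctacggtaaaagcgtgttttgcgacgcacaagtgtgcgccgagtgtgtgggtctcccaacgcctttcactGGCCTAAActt
rpl-36.A (chrII:11097479-11097629, minus strand): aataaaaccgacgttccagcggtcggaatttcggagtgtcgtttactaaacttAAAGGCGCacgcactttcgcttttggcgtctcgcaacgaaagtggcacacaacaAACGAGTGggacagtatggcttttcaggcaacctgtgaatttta
rpl-35 (chrIII:7854620-7854770, plus strand): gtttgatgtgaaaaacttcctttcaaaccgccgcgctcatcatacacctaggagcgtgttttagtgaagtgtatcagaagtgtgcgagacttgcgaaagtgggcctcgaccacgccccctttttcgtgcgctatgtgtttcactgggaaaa
rpl-20 (chrIV:4750004-4750154, minus strand): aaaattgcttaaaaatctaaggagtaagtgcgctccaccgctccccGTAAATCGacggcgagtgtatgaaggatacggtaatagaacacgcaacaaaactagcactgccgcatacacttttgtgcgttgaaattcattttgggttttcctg
rpl-6 (chrIII:7208041-7208191, plus strand): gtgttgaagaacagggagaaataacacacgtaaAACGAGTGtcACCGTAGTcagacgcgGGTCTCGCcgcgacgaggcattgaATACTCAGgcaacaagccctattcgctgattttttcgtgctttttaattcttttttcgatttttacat
rpl-2 (chrV:20479252-20479402, plus strand): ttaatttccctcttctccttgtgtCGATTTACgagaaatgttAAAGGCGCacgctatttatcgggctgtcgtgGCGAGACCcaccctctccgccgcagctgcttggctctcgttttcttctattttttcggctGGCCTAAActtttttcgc
rpl-15 (chrIV:654855-655005, minus strand): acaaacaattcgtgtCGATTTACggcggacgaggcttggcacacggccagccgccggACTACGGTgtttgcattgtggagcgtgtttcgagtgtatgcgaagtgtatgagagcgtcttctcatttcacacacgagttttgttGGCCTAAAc
rpl-22 (chrII:5055304-5055454, plus strand): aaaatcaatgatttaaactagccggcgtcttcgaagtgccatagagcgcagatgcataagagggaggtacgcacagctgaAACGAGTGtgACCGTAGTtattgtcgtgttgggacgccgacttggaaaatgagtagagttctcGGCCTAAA

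The summits of rpl-3, rpl-35, rpl-20, rpl-6, rpl-2, rpl-15 and rpl-22 are intergenic, and that of rpl-36.A lies in an exon of the non-coding RNA gene C09H10.11. The windows of rpl-6 and rpl-2 hold 4 words each, as does that of rpl-17 on chromosome I, from which no window was printed. The window of rpl-35 holds none, although its peak ranks above those of rpl-6, rpl-2 and rpl-17. Word 1, GCGAGACC, was present in 13 of 39 rpl windows (33.3%), in 1.26% of all optimal summits and in 0.881% of windows of the same length placed 302 bp upstream of all 19973 protein-coding genes. Word 2, GGCCTAAA, was present in 10 rpl windows (25.6%), in 0.457% of optimal summits and in 0.571% of those promoter windows. Word 3, CGATTTAC, was also present in 10, against 0.983% of optimal summits and 0.671% of promoters.

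Each of the remaining words was found in 8 or 9 rpl windows. Word 4, ACCGTAGT, was in 9 (23.1%), against 0.674% of optimal summits and 0.536% of promoters. Word 5, AACGAGTG, was in 9, against 0.903% of optimal summits and 0.35% of promoters. Word 6, AAAGGCGC, was in 9, against 1.36% of optimal summits and 1.18% of promoters, and word 7, ATACTCAG, was in 8 (20.5%), against 0.32% of optimal summits and 0.275% of promoters. Every one of these shares counts the word and its reverse complement.

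At least 1 of the 7 words was present in 33 of 39 rpl windows (84.6%) and 2 or more in 21 (53.8%). Bound genes outside the rpl and rps families had 4131 distinct best summits that were not also the best summit of an rpl or rps gene. A summit shared by several genes was counted once. Of these summits, 6.1% held at least 1 word and 1.07% held 2 or more. In windows of the same size shifted 500 bp to either side of the rpl summits, 0 of 78 held a word, which allows a share of up to 3.85%. The small subunit genes (rps) were not used to pick the words. Leaving out 3 rps genes whose best peak is also that of an rpl gene, 22 of 27 rps summits held at least 1 word (81.5%) and 9 held 2 or more (33.3%). Genes of the mitochondrial large subunit (mrpl), whose proteins belong to another ribosome, held at least 1 word at 4 of 17 best summits (23.5%). The peak of mrpl-49, 1 of these 17, is also the best peak of rpl-28.

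**Figure D1:**
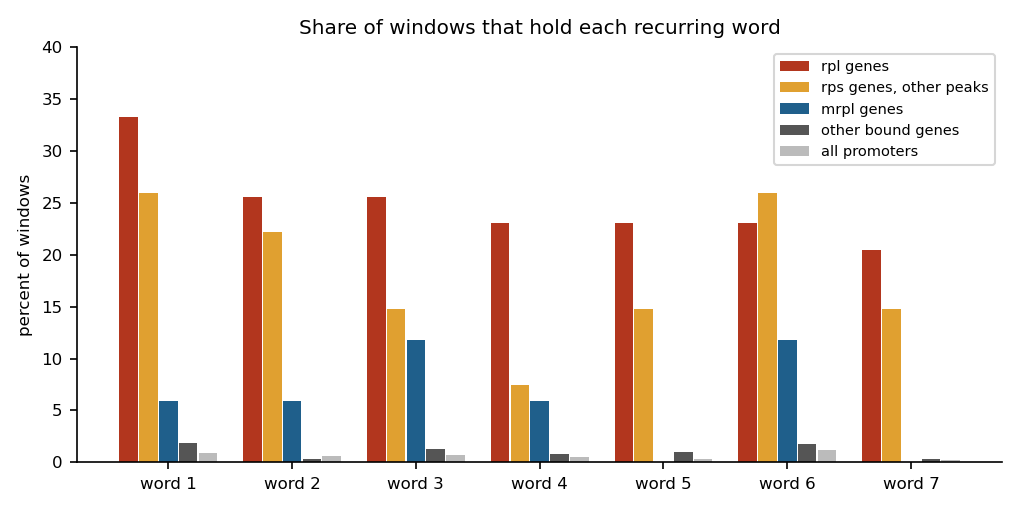
Percent of 151-bp windows that hold each of the 7 recurring words on either strand: best summits of the 39 bound rpl genes, of 27 rps genes that share no best peak with an rpl gene and of 17 mrpl genes, 4131 distinct best summits of other bound genes, and windows 302 bp upstream of 19973 protein-coding genes. The words were picked on the rpl windows. Summits that are also the best summit of an rpl or rps gene are left out of the other bound genes. In the other bound genes and promoters no word reaches 2%.

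Some words kept to certain places within the windows. In its 10 windows word 2 lay on the gene's side of the summit, from 36 to 75 bp downstream of it, with a median of 61.5 bp, and the upper end is the edge of the window. In its 10 windows word 3 lay on the far side, from 60 to 22 bp upstream of the summit, with a median of 43.5 bp. Word 1 lay around the summit itself, from 24 bp upstream to 13 bp downstream. The other words lay on both sides: word 4 from 32 bp upstream to 30 bp downstream, word 5 from 42 to 39, word 6 from 43 to 32 and word 7 from 25 to 56. Word 5 had the same orientation relative to the gene in all 9 of its windows, while word 3 had it in 5 and the opposite orientation in 5.

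**Figure D2:**
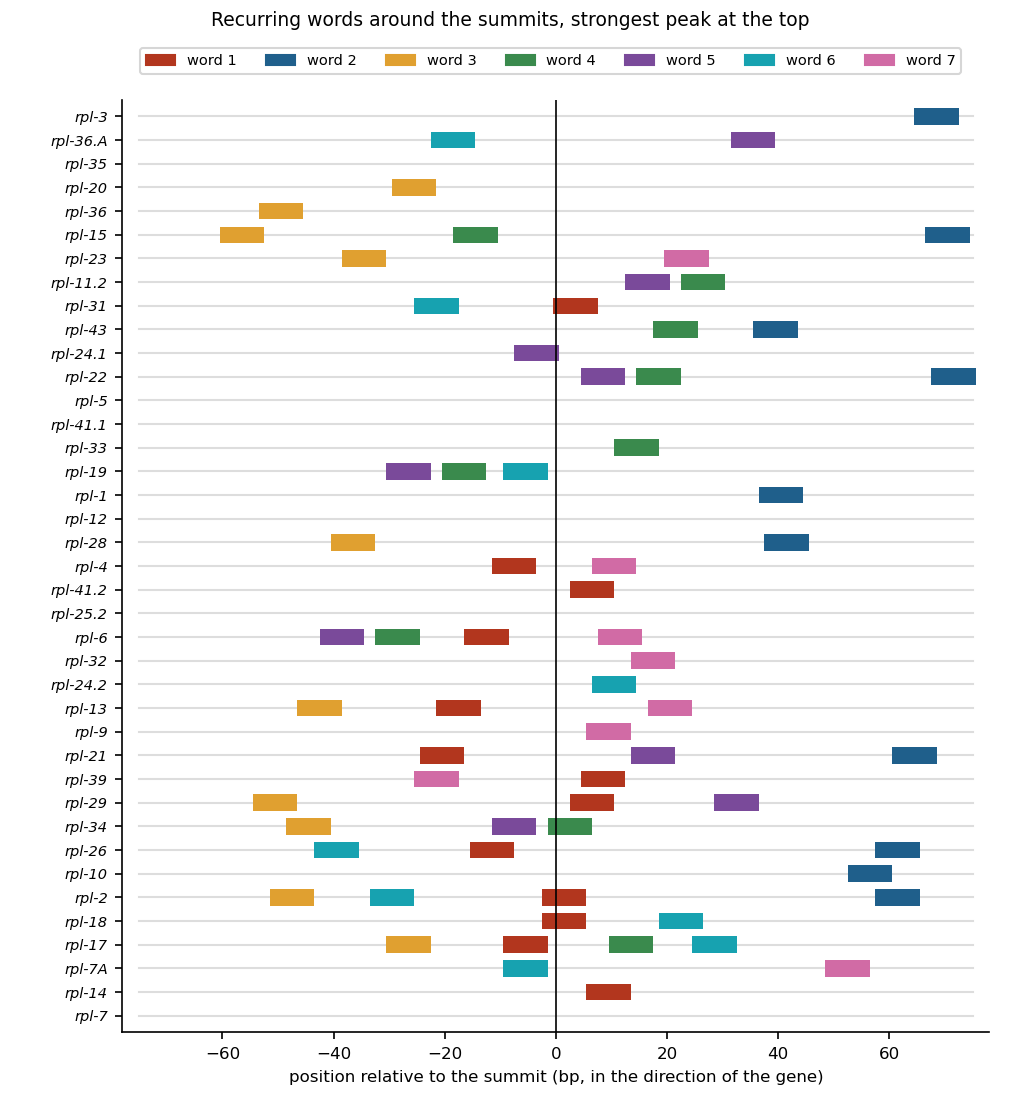
Positions of the 7 recurring words within 75 bp of the summit for each bound rpl gene, strongest peak at the top; positions are in bp in the direction of the gene, 0 is the summit and each block is a word of 8 bases. Word 3 sits on the left of the summit and word 2 on the right, and 6 genes (rpl-35, rpl-5, rpl-41.1, rpl-12, rpl-25.2 and rpl-7) have no word.

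The most frequent arrangement of a pair of words up to 10 bases apart was word 5 followed by word 4 with any 2 bases between them. It occurred at 5 rpl summits, those of rpl-11.2, rpl-19, rpl-22, rpl-34 and rpl-6, each time on the gene's own strand where printed. It was present at 7 of the 8751 optimal summits, these 5 included, at 0 of 30 rps summits and in 5 of 19973 promoter windows. Below, capitals mark the words of the pair in 4 of the genes.

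rpl-11.2 (chrX:2242952-2242981, minus strand): gccagaAACGAGTGttACCGTAGTcatttt
rpl-22 (chrII:5055378-5055407, plus strand): agctgaAACGAGTGtgACCGTAGTtattgt
rpl-6 (chrIII:7208068-7208097, plus strand): acgtaaAACGAGTGtcACCGTAGTcagacg
rpl-34 (chrIV:12268559-12268588, plus strand): atggtaAACGAGTGttACCGTAGTcttcgc

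The proteins of these genes sit in different places on the ribosome. uL5B (rpl-11.2) binds the 5S ribosomal RNA, and eL6 (rpl-6), eL22 (rpl-22) and eL34 (rpl-34) lie elsewhere on the large subunit. In 38 of the 39 windows every stretch of 30 bases occurred only once in the 6 nuclear chromosomes. In the window of rpl-7A 84.4% of the stretches did, and the most repeated of its stretches had 3 copies.

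Peaks were ranked by the authors' signal, a value whose scale is not given, with rank 1 the strongest of the 8751 optimal peaks. The best peaks of the 39 bound rpl genes ranked from 209 to 5013, with a median of 1735, against a median of 3904 for the best peaks of all bound protein-coding genes. The signal ran from 129 to 909.8 with a median of 293, and the whole optimal list ran from 62 to 4255 with a median of 147. Of the 39 peaks, 26 had ranks up to 2187 (66.7%, interval 49.8 to 80.9%), against 27.1% for all bound genes. No rpl peak ranked among the weakest 2187.

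The strongest rpl peak was upstream of rpl-3, whose protein uL3 reaches the peptidyl transferase centre. It had rank 209 and signal 909.8 in the optimal list, rank 535 in replicate 1 and rank 160 in replicate 2. The peak of rpl-36.A, which encodes eL42, the protein called RPL36A in mammals, had rank 234, with rank 445 in replicate 1 and rank 195 in replicate 2. Of other genes for proteins of the peptidyl transferase region, rpl-10 (uL16) was at 2939 and rpl-2 (uL2) at 3512. The genes are taken here by the place of their protein on the ribosome, as examples and not as complete groups.

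Other members encode proteins around the exit tunnel. The peak of rpl-35 (uL29, at the tunnel exit) had rank 491, with 784 in replicate 1 and 391 in replicate 2. The peak of rpl-31 (eL31, also at the exit) had rank 1094, with 1117 in replicate 1 and 1175 in replicate 2. Further down were rpl-19 (eL19) at 1395, rpl-4 (uL4, a wall of the tunnel) at 1735, rpl-25.2 (uL23B, at the exit) at 1744, rpl-39 (eL39) at 2582, rpl-26 (uL24) at 2873 and rpl-17 (uL22) at 3781. Of the proteins that hold the 5S ribosomal RNA, uL5B had its gene rpl-11.2 at rank 890, with 1646 in replicate 1 and 706 in replicate 2, and uL18 had its gene rpl-5 at rank 1195.

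Members for proteins on the face toward the small subunit include rpl-23 and rpl-24.1. The peak of rpl-23 (uL14) had rank 781, with 1310 in replicate 1 and 620 in replicate 2. The peak of rpl-24.1 (eL24) had rank 1150, with 1985 in replicate 1 and 939 in replicate 2. The mobile stalks were represented by rpl-1 (uL1) at rank 1405 and rpl-12 (uL11) at rank 1478.

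The remaining genes among the 12 strongest encode proteins that in yeast and mammals bind ribosomal RNA elsewhere in the subunit. The peak of rpl-20 (eL20) had rank 523, with 1116 in replicate 1 and 424 in replicate 2. The peak of rpl-36 (eL36) had rank 661, with 727 in replicate 1 and 658 in replicate 2. The peak of rpl-15 (eL15) had rank 735, with 1845 in replicate 1 and 511 in replicate 2. All 3 were found in both replicates.

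The last pair of the 12 differed in replicate support. The peak of rpl-22 (eL22) had rank 1175, with 1753 in replicate 1 and 1043 in replicate 2. The peak of rpl-43 (eL43) had rank 1101 and rank 754 in replicate 2, but replicate 1 had no summit within 100 bp of it.

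**Figure D3:**
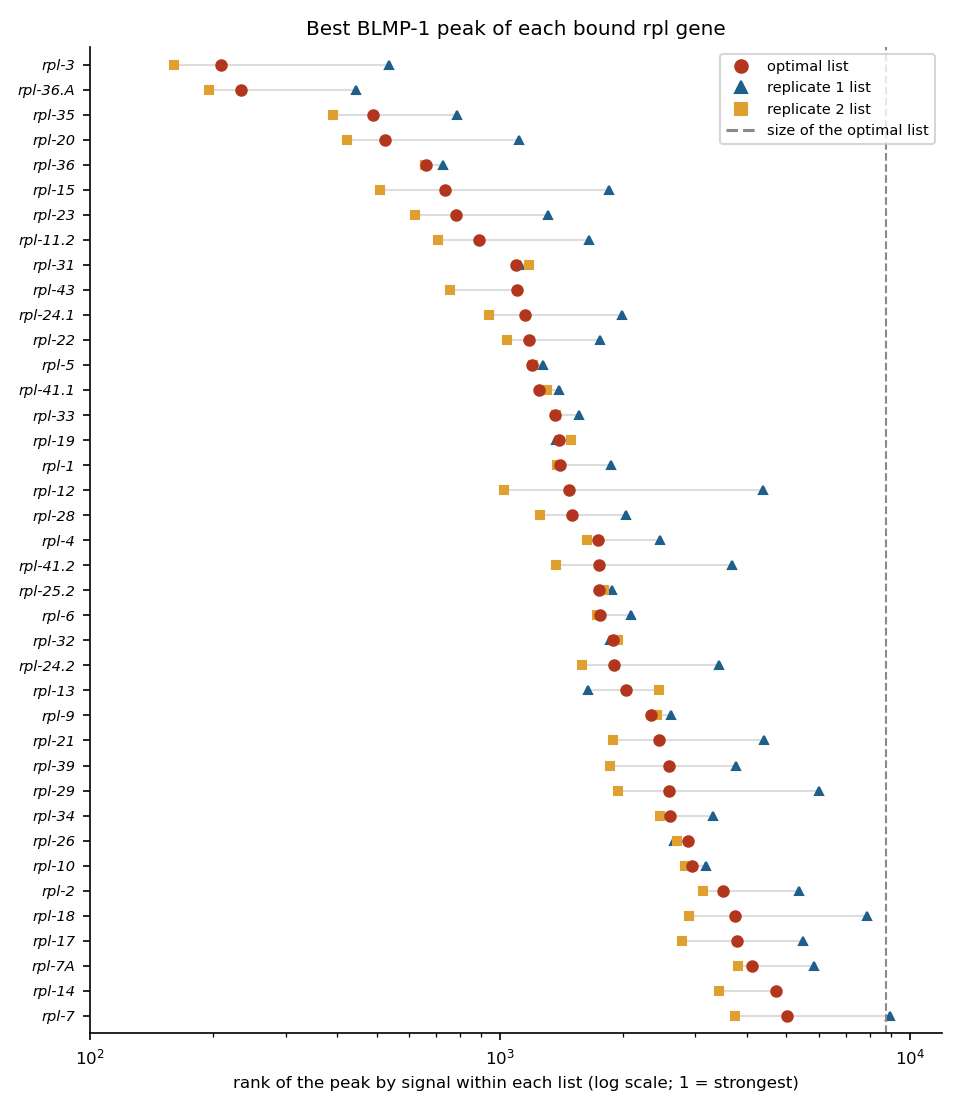
Rank of the best peak of each of the 39 bound rpl genes by signal (log scale, 1 = strongest) in the optimal list, and of the matched summit within 100 bp in the lists of replicates 1 and 2; the dashed line marks the 8751 peaks of the optimal list. rpl-43 and rpl-14 have no replicate 1 point, and the replicate 1 point of rpl-7 lies beyond the dashed line.

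A best peak counted as supported by a replicate when that replicate's 8751 strongest peaks included a summit within 100 bp of it. Both replicates supported 36 of 39 best rpl peaks (92.3%, interval 79.1 to 98.4%), against 79.6% of the best peaks of all bound genes, a value just inside the interval. All 39 were supported by replicate 2, and the 3 without replicate 1 were rpl-43, rpl-14 and rpl-7. Replicate 1's nearest summit to the rpl-14 peak was 107 bp away, just past the limit. For rpl-7 (uL30) the replicate 1 summit coincided with the optimal one but ranked 8962, below the 8751 counted.

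Summit positions repeated closely between the lists. The median offset from the optimal summit was 6 bp over the 37 rpl sites matched in replicate 1's whole list and 1 bp over the 39 matched in replicate 2's. The 2 lists held 27310 and 30000 peaks, so their ranks are given side by side only. The optimal peaks come from both replicates together, and their closeness to each replicate is therefore not an independent check.

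The rpl summits gathered at a similar distance from the gene's own start. That distance ran from 743 to 37 bp upstream, with a median of 302 bp upstream and a middle range (25th to 75th percentile) from 372.5 to 252.5 bp upstream. Over all bound genes the median was 279 bp upstream and the middle range ran from 762 to 122 bp upstream. The 30 bound rps genes had nearly the same middle range as the rpl genes, from 371.75 to 252.25 bp upstream. The narrow spacing is therefore not particular to the rpl genes. Between 500 and 200 bp upstream lay 32 of 39 rpl summits (82.1%), against 1327 of the 5483 summits of all bound genes. Between 200 and 0 bp upstream lay 12.8% of rpl summits, against 32.6%.

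**Figure D4:**
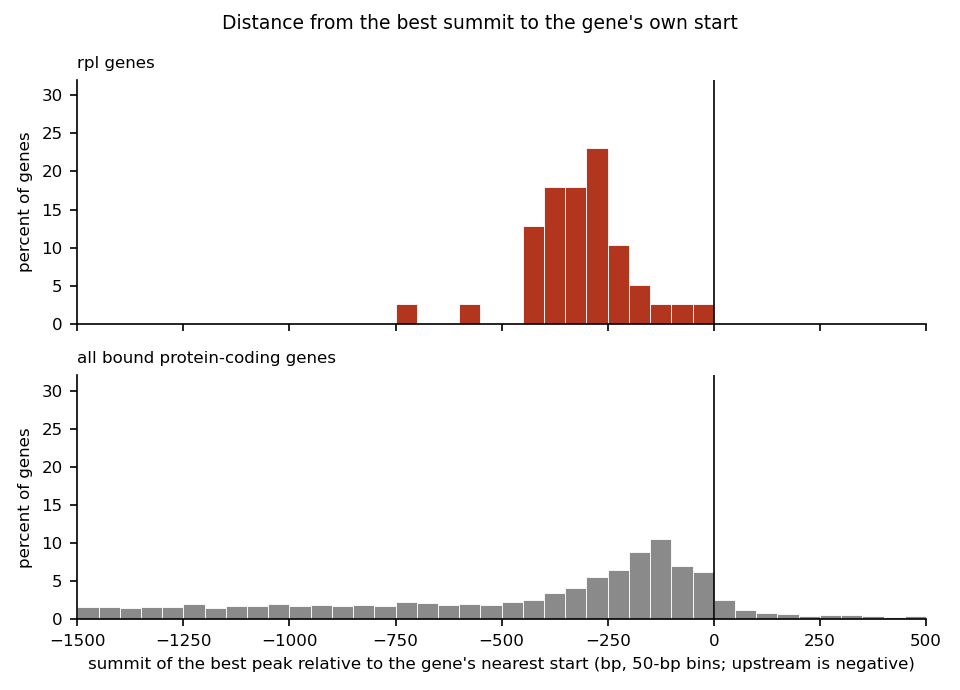
Percent of the 39 bound rpl genes (upper panel) and of all 5483 bound protein-coding genes (lower panel) by the distance from the best summit to the gene's nearest annotated start, in 50-bp bins, upstream negative. The rpl summits gather between 450 and 200 bp upstream, while those of all bound genes are highest in the bins from 200 to 100 bp upstream and have a long upstream tail.

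The members farthest from the median were rpl-43, at 743 bp upstream, and rpl-41.1, at 569 bp upstream, on the far side, and rpl-12, at 37 bp, and rpl-7A (eL8), at 96 bp, on the near side. In 38 genes the best peak was the only optimal peak in the window. The exception, rpl-41.1, had a second peak of rank 5872 at 1306 bp upstream. The member nearest to the limit of the window was rpl-12, still 537 bp inside it, so no bound rpl gene depended on the exact window edge.

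Most rpl peaks were narrow. The most common width in the optimal list was 336 bp, and 26 of the 39 best rpl peaks were narrower (66.7%, interval 49.8 to 80.9%), against 35.6% over the best peaks of all bound genes. For the rps genes the share was 46.7% (interval 28.3 to 65.7%). The narrow rpl peaks were mostly those with the better ranks, and widths were not compared at matched rank. Median GC content of the 151 bp around the summit was 44.4% for rpl genes and 41.1% for all bound genes. The summits were intergenic in 30 genes, in an exon of a non-coding RNA gene in 6, in an intron in 2 (rpl-19, which has a longer transcript that starts farther upstream, and rpl-24.2, in its neighbour C03D6.1) and in a 5′ UTR of a neighbour, ints-11, in the case of rpl-10.

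C. elegans genes are closely packed, and most rpl peaks also fell in the window of a neighbour. The best peak lay in the window of at least 1 other protein-coding gene for 30 of 39 rpl genes (76.9%, interval 60.7 to 88.9%), against 45.7% of all bound genes. It lay in the window of 1 other gene in 18 cases, of 2 in 11 and of 3 in 1. The rpl gene had the nearest protein-coding start in 22 of 39 cases (56.4%, interval 39.6 to 72.2%), against 74.9% for all bound genes.

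**Figure D5:**
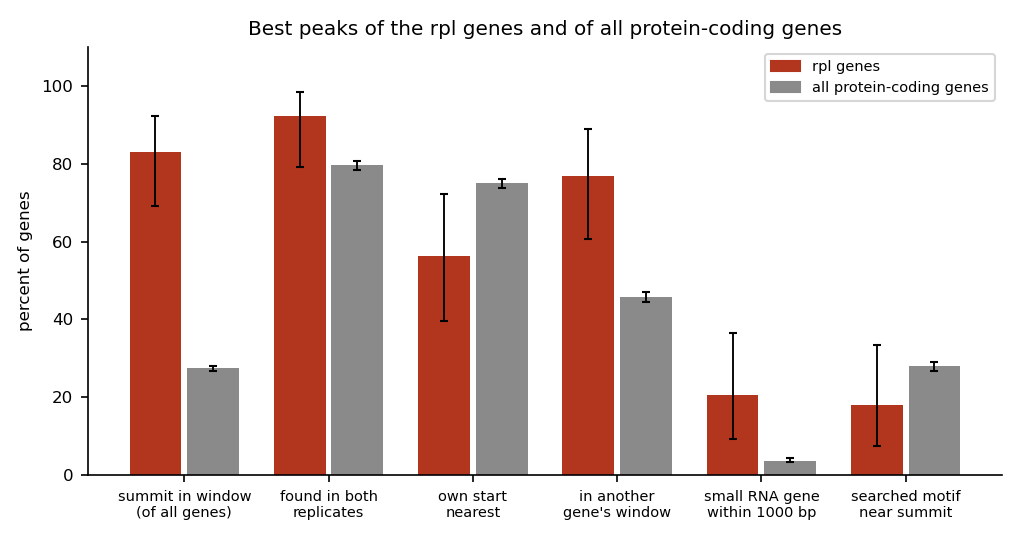
Percent of rpl genes (left bars) and of all protein-coding genes (right bars) with a summit in the window, and, among bound genes, with a best peak found in both replicates, with their own start nearest, in another gene's window, within 1000 bp of a small RNA gene and with the searched motif AAAGTGAAA (at most 1 mismatch) near the summit. Error bars are exact 95% binomial intervals; the rpl share is higher for a summit in the window, another gene's window and a small RNA gene, lower for the own start, and the intervals overlap for the motif.

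The neighbour closer to the summit was always on the opposite strand: in all 17 genes without the nearest start, that start belonged to a gene read in the other direction. Its start was 13 to 305 bp from the summit, with a median of 178 bp. For 28 of the 39 bound genes the nearest upstream or overlapping protein-coding gene was on the opposite strand, here called divergent. For the other 11 it was on the same strand, called tandem. The divergent ones include rpl-24.2, whose start lies inside its neighbour C03D6.1, and rpl-35, whose neighbour is 11497 bp away. All 11 genes with a tandem neighbour had the nearest start themselves, against 11 of the 28 with a divergent neighbour. The median distance to the own start was 332 bp upstream with a divergent neighbour and 283 bp upstream with a tandem one. The counts by strand and neighbour orientation cover rpl genes only, with no share over all bound genes beside them. They describe the layout around these summits and show no feature particular to the rpl genes.

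Some peaks were shared with an rps gene. The peak of rpl-36 lay 404 bp upstream of its start and 259 bp from that of rps-14, which encodes a small subunit protein. The peak of rpl-24.1 lay 245 bp upstream of its start and 365 bp from that of rps-10. The peak of rpl-39 was nearly midway, 248 bp upstream of its start and 251 bp from that of rps-30. For such pairs the peak cannot be given to either gene alone.

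Other shared peaks joined rpl genes to neighbours without an rpl or rps symbol. The peak of rpl-9 (uL6) lay 256 bp upstream of its start and 263 bp from that of lpd-7, which encodes the worm pescadillo, a ribosome assembly factor. The peak of rpl-28 (eL28) was closer to mrpl-49, at 159 bp, than to rpl-28, at 360 bp. Among the 12 strongest, rpl-36.A shared its peak with nuo-1 (start at 283 bp) and nbs-1, rpl-20 with Y17G9B.5 (161 bp) and cyc-2.1, and rpl-31 with sac-2 (46 bp). The peak of rpl-43 also lay in the windows of Y48B6A.1 (178 bp) and xrn-2, and that of rpl-22 in the window of ify-1 (200 bp). The peak of rpl-15 also lay in the window of K11H12.8 (460 bp) and that of rpl-23 in the window of swp-1 (904 bp). The peak of rpl-36 lay in the window of ndab-2 as well, and that of rpl-24.1 in those of D1007.10 and tmem-39. The peaks of rpl-3, rpl-35 and rpl-11.2 lay in no other gene's window.

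Small RNA genes were close to 8 of the 39 best rpl summits (20.5%, interval 9.3 to 36.5%) within 1000 bp, against 3.72% for all bound genes. The types counted were tRNA, rRNA, snRNA and snoRNA genes. All 8 were snoRNA genes inside the rpl gene itself, at 378 to 682 bp from the summit and on the gene's side of it. The closest were in rpl-7A, at 378 bp, and rpl-24.1, at 379 bp, followed by rpl-26 at 437 bp, rpl-4 at 475 bp and rpl-6 at 497 bp. Farther off were those of rpl-15 at 569 bp, rpl-7 at 580 bp and rpl-2 at 682 bp.

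These 8 are also all the rpl genes that host a small RNA gene, 12 snoRNA genes in all, and 3 of those are in rpl-6. Over the whole annotation 1.68% of protein-coding genes host a small RNA gene. All of the host genes among the rpl genes were bound, and their peaks ranked from 735 (rpl-15) to 5013 (rpl-7). Without any peak within 1000 bp of a small RNA gene, 31 rpl genes were still bound (66%), against 26.5% of all protein-coding genes under the same filter.

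The motif AAAGTGAAA was searched in the 151 bp around the summit, on either strand and allowing 1 mismatch. It was present at 7 of 39 rpl summits (17.9%, interval 7.54 to 33.5%), against 28% of the best summits of all bound genes and 32% of all optimal summits. The 7 genes were rpl-36.A, rpl-23, rpl-43, rpl-41.2, rpl-10, rpl-18 and rpl-17. In flanks 500 bp to the left and right, 4 and 8 of the 39 held it. An exact match was found at 0 of 39 rpl summits, which allows a share of up to 7.69%, against 4.45% for all bound genes.

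Of the other motifs searched on both strands, CTGCGTCTC was present at 2 rpl summits, against 8.37% of the best summits of all bound genes. GAGAGA was present at 7, against 31%. Neither contains AAAGTGAAA or is contained in it. With 39 summits these shares are known only roughly.

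There were 8 rpl genes without an optimal summit in the window: rpl-11.1, rpl-16, rpl-25.1, rpl-27, rpl-30, rpl-37, rpl-38 and rpl-42. No pooled summit lay in the window of any of them either, although the pooled list holds 30000 peaks. They fall into different cases when the nearest summits and each replicate's own list are read.

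For rpl-30 and rpl-38 a replicate alone had a strong summit at the usual distance. Replicate 1 had a summit of rank 3426 at 381 bp upstream of rpl-30 (eL30), where replicate 2 had none in the window. Replicate 2 had a summit of rank 1975 at 357 bp upstream of rpl-38 (eL38), where replicate 1 had none. The rpl-30 summit of replicate 1 has words 1 and 4 within 75 bp of it, and the rpl-38 summit of replicate 2 has word 6.

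The deposited pooled list held no summit over long stretches around these genes, and around some other unbound ones. The distance between the pooled summits on either side of the start was 81.8 kb at rpl-30 and 31.6 kb at rpl-38. At the other unbound genes it was 24.8 kb (rpl-25.1), 20.2 kb (rpl-11.1), 16.1 kb (rpl-16), 8.83 kb (rpl-37), 4.52 kb (rpl-42) and 2.92 kb (rpl-27). Between neighbouring pooled summits the median was 1.3 kb and the 99th percentile 33.5 kb, which only the stretch at rpl-30 exceeds among the 8. Having no pooled summit in the window already makes each of these distances longer than that median. A stretch picked for holding a given start also tends to be long, so the contrast shows nothing particular to these genes. Of the 8751 strongest peaks of replicate 1, 544 (6.22%) had no pooled summit within 100 bp, and of those of replicate 2, 208 (2.38%). Whether BLMP-1 was absent from these promoters or the lists missed it was not tested.

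For rpl-27 (eL27), rpl-16 (uL13) and rpl-25.1 (uL23A) the upstream neighbour was close and on the same strand. The gap to it was 119 bp for rpl-27, 105 bp for rpl-16 and 97 bp for rpl-25.1, against a median of 609 bp for the 39 bound rpl genes. The nearest optimal summit to rpl-16 was 1761 bp upstream, with rank 4140, and lies in the window of that neighbour, lias-1. The nearest to rpl-25.1 was 3040 bp upstream, with rank 1824, in the windows of glit-1, its upstream neighbour, and dnj-14. For rpl-27 it was 739 bp downstream of the start, with rank 4086. Some C. elegans genes on the same strand are transcribed together as operons; no operon annotation was used here.

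The other unbound genes had weak summits or none. For rpl-37 (eL37) replicate 1 had a summit of rank 19120 at 644 bp upstream and replicate 2 had one of rank 22026 at 264 bp upstream, both far below the 8751 strongest. For rpl-11.1 (uL5A) replicate 1 had a summit of rank 11647 at 139 bp upstream. The gene rpl-42 had no summit in its window in any list, and its nearest optimal summit, 4841 bp downstream, is the peak of rpl-36.A.

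In the 1500 bp upstream of the start, rpl-30, rpl-38 and rpl-11.1 held at least 1 of the 7 words, while rpl-27, rpl-42, rpl-16, rpl-37 and rpl-25.1 held none. The share of unbound rpl genes with a word was thus 3 of 8 (37.5%), against 25.5% of all protein-coding genes. The same stretch held a word in 36 of the 39 bound rpl genes (92.3%). The words were picked on the summit windows of these bound genes, so their share largely follows from the choice. The words of rpl-30 lay 389 and 364 bp upstream and that of rpl-38 lay 396 bp upstream, close to the single-replicate summits.

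Of the copies of the same protein, those for uL5 and uL23 differed in binding, and the rpl-41 copies were both bound. rpl-11.2 was bound at rank 890, 370 bp upstream, and rpl-11.1, which encodes the other uL5, was unbound. The windows of 151 bases at the rpl-11.2 summit and at the same distance upstream of rpl-11.1 are printed below, with words in capitals; the rpl-11.1 window at that distance holds none. Word 2 does occur nearer to the start of rpl-11.1, in overlapping matches 142 and 138 bp upstream, at its replicate 1 summit of rank 11647.

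rpl-11.2 (chrX:2242913-2243063, minus strand): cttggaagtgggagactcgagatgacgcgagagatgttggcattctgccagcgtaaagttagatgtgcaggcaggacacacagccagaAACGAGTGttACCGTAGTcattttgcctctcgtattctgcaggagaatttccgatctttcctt
rpl-11.1 (chrV:3586359-3586509, minus strand): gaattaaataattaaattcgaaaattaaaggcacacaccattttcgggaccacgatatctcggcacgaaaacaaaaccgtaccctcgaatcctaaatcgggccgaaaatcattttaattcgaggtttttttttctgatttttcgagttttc

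The pair for uL23 split in the same way, with rpl-25.2 bound at rank 1744, 149 bp upstream, and rpl-25.1 unbound. Both genes of the eL24 family were bound, rpl-24.1 at rank 1150 and rpl-24.2 at rank 1904. In yeast the protein related to rpl-24.2, Rlp24, holds the place of eL24 during assembly. Both neighbouring rpl-41 genes were bound, by separate peaks of rank 1249 for rpl-41.1 and 1743 for rpl-41.2. rpl-7 (rank 5013) and rpl-7A (rank 4134) encode unlike proteins and gave the weakest peak and the third weakest.

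For eL37 the unbound rpl-37 has a counterpart that carries an rpl- name in RefSeq only. That gene, W01D2.1 (RefSeq rpl-37.1), was bound at rank 1757, 413 bp upstream. The other gene with an rpl- name in RefSeq only, Y37E3.8 (RefSeq rpl-27A), was bound at rank 3187, 280 bp upstream. Their summits held 1 and 2 of the words. Both stand outside the 47 genes because the Ensembl annotation gives them no rpl- symbol.

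Among related gene lists, the rps genes were bound in 30 of 31 cases (96.8%, interval 83.3 to 99.9%), with a median rank of 2561.5 and a median distance of 285.5 bp upstream. The mrpl genes were bound in 17 of 41 cases (41.5%, interval 26.3 to 57.9%), with a median rank of 3489 and a median distance of 176 bp upstream. All 4 genes for the stalk proteins and the ubiquitin fusion ubq-2 were bound (interval 39.8 to 100%). Of 13 genes of ribosome assembly and RNA polymerase I, 11 were bound (interval 54.6 to 98.1%). The share of all protein-coding genes was 27.5%, and such short lists give wide intervals. Of the best rps peaks 80% lay in another gene's window and 20% were within 1000 bp of a small RNA gene, beside 76.9% and 20.5% for the rpl genes.

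The bound rpl genes were spread over the autosomes and X. The counts bound, with the share of all protein-coding genes bound on the same chromosome, were 13 of 15 on I (all genes 34.1%), 8 of 9 on II (all genes 27.3%), 7 of 9 on III (all genes 36.1%), 7 of 7 on IV (all genes 24.9%), 3 of 5 on V (all genes 20.2%) and 1 of 2 on X (all genes 28.7%). The counts per chromosome are small.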

How the data were processed

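ChIP-seq peak lists of 2 biological replicates of L1 larvae were used. Per the labels, the library size range was 150 to 350 (no unit is stated) and both ce10 and ce11 were used. The sources used here do not give the extraction protocol, aligner, peak caller or the threshold behind the optimal list. The authors called peaks on each replicate and on both together, and deposited these lists and an optimal list. The signal per peak is the authors' deposited value; its scale is not given, and it served only to rank and filter peaks within a list. The lists for ce10 and the text listings were not used. Replicates are separate samples per the labels, and no test compared groups, since there is only 1.

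Summits (start plus the deposited offset, given 1-based) of the ce11 lists were set against Ensembl release 115 gene models (WBcel235, the same assembly); no peak ran past a chromosome end, and 36 of the 47 rpl genes had identical coordinates in RefSeq, against 88.1% of all protein-coding genes with a RefSeq record, so distances to a start depend on the annotation. Depth is unknown, so the precision of a single peak cannot be given. Intervals are exact Clopper-Pearson 95% intervals over genes, which share peaks and are not independent, and limits for a count of 0 use 3 counts. Equal signals were ordered by position. RefSeq records gave products for all 47 rpl genes.

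The members, lists and motifs were chosen with earlier results of these data known, and the 7 words after the sequences were seen. Genes named are the 12 with the strongest peaks, all unbound ones, those lacking support in a replicate, those with a nearby small RNA gene, paralogs, and neighbours sharing a peak; others were named after their values were seen. The functions that place summits and search motifs were tested on simulated data. Python 3.11.15, numpy 2.4.6 and scipy 1.17.1 were used.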

Additional observations from a re-analysis of the deposited data

How the results depend on the processing

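The number of bound rpl genes ran from 31 to 41 when the window, the start used, the peak list or the replicates were changed. The exception was 24 (51.1%, against 5024 of 19973 protein-coding genes). There each summit counted only for the gene with the nearest start, up to 3000 bp away. A window of 3000 bp upstream gave 41, against 34.6% of all protein-coding genes, and 500 bp on each side gave 37, against 19.5%. Leaving out the weaker optimal peaks gave 37, against 15.4%, and requiring peaks in both replicates gave 36, against 22.1%. The coding start gave 39, against 26.9%, and the most upstream start alone 39, against 25.9%. Leaving out peaks near small RNA genes gave 31, against 26.5%. With the strongest peaks of replicate 2 alone 40 were bound, against 27.9% of all protein-coding genes, and with those of replicate 1 alone 37, against 27%. The median distance to the own start was -292 bp without replicate 2 and -300.5 bp without replicate 1, beside -302 bp. Small RNA genes lay near 5 best summits at 500 bp, and 17 when all non-coding RNA genes under 200 bp counted. The motif AAAGTGAAA was at 0 summits as an exact match and at 20 within 150 bp. The counts of 5, 17 and 20 lack the share of all bound genes under the same setting, so they cannot be called high or low. The other planned settings moved no count by more than 1.5 times. With 500 bp on each side, 22 of the 37 best rpl peaks lay in another gene's window, a smaller share than 30 of 39. The share of all bound genes at that setting is not given.

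The count of rpl summits with 2 or more words was repeated under settings chosen after seeing the data. It was 21, and 19 to 21 with the distance, the replicate or the shared peaks changed. The words were not picked again and the sequences were largely the same, so this stability is mostly built in and is no independent check. No paired analysis was possible because the study has only 1 group.

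Depth is unknown, so an unbound gene means that no peak was listed, and 39 best peaks allow only wide intervals.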

Other observations

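Of the 37 bound rpl sites with a summit in both replicates' lists, 32 had a better rank in replicate 2 than in replicate 1. The lists differ in length, the same count over all bound genes is not given here, and the reason for the difference was not tested.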
